A study of Mus musculus with 2 samples.

Results

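The insulin-like growth factor (IGF) system was examined as 10 genes, which encode the ligands IGF1 and IGF2, the receptors IGF1R and IGF2R, and the binding proteins IGFBP2, IGFBP3, IGFBP4, IGFBP5, IGFBP6 and IGFBP7. The genes were chosen by name, with earlier results of these data known and no measured value in the rule, from 21887 protein-coding genes of the RefSeq annotation of the mouse genome build GRCm38 (mm10). Peaks were collected in the span of each gene and within 50 kb of either end. The data were RUNX2 CUT&Tag libraries of untreated MC3T3-E1 cells, a mouse line of osteoblast precursors, with 2 replicates in 1 group. In CUT&Tag, an antibody against a chromatin protein directs the transposase Tn5 to the sites where that protein lies. No control library and no second condition is among these samples, so every value is a description of where peaks were called and no contrast was tested. Nothing in the labels ties the replicates to separate cultures, so differences between them could be technical. The peak lists hold positions and widths without heights or read numbers, so the depth behind each peak is unknown. They hold no expression values, so whether these genes were transcribed in the cells was not measured.

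IGF1 and IGF2 are secreted growth factors that signal through IGF1R, a receptor tyrosine kinase of the cell surface, to promote the growth and survival of osteoblasts and many other cells. IGF2R, which is also the receptor for mannose 6-phosphate, takes up IGF2 and sends it to lysosomes. The binding proteins hold IGFs in the circulation and in the matrix and set how much ligand reaches the receptor. RUNX2, a Runt-family transcription factor, is needed for osteoblasts to form.

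At 8 of the 10 genes, regions with a peak in both replicates (shared regions, overlapping by at least 1 bp) lay in the gene or within 50 kb. Igf1r had 8 such regions, Igfbp7 had 6, Igf2r had 5 and Igfbp6 had 4. Igf1, Igfbp2, Igfbp4 and Igfbp5 had 3 each, and Igf2 and Igfbp3 had no peak in either replicate. Of all protein-coding genes, 69.9% had a shared region by the same rule. The mean share was 77.4% when each IGF gene was set beside the genes of similar length (the same decile), so the count of 8 was near the background. The median number of shared regions was 3 for the IGF genes and 2 for all protein-coding genes. The regions numbered 32 in all, since Igfbp2 and Igfbp5 are neighbours and the 3 regions of each were the same ones.

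None of these regions reached a promoter window at a listed start of an IGF gene. The RefSeq promoter table lists 14 transcription starts for the 10 genes. Of these, 4 belong to Igf2, which had no peak, 2 to Igfbp2 and 1 to each other gene. Windows of the same gene are not independent. A shared region overlapped 0 of the 14 windows of 250 bases before to 50 after the start. The spans of Igf1, Igfbp3 and Igfbp4 begin upstream of their only listed start (87861111, 7213923 and 99041244). Any start further upstream in these genes was not checked. Of all 32851 such windows in the table, 22.8% were overlapped by a shared region. A shared region came within 1 kb of a listed start at 2 of the 10 genes, Igf1r and Igfbp6, against 35.1% of the protein-coding genes that have a listed start. The promoter windows of these 2 genes are shown because they lay nearest to a shared region, which ended 565 bp before the Igf1r window and 361 bp before the Igfbp6 window. Those of Igfbp3 and of one Igf2 start are shown because they are the IGF gene windows with the letters TGTGGT or TGCGGT, the core read by Runt-family factors, although neither gene had a peak. That of Spryd3, a neighbour of Igfbp6, is shown as a promoter that a shared region, merged over both replicates, covered. Sequences are from RefSeq (GRCm38.p6), on the gene's own strand from 5′ to 3′, and capitals mark a match on either strand to TGTGGT, to TGCGGT or to the AP-1 letters TGANTCA (N, any base).
Igf1r, chr7:67952007-67952306, plus strand: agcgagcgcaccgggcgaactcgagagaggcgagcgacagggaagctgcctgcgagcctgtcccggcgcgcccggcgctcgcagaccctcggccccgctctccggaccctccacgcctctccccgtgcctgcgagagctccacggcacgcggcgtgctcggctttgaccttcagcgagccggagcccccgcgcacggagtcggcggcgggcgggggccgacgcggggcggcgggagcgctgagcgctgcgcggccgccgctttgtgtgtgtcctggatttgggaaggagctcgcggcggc
Igfbp6, chr15:102143936-102144235, plus strand: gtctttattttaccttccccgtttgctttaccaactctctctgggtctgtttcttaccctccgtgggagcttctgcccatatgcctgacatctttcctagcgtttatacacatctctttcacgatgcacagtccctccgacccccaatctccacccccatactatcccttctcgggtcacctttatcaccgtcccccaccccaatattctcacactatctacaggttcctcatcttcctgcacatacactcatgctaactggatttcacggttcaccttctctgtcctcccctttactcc
Igfbp3, chr11:7213874-7214173, minus strand: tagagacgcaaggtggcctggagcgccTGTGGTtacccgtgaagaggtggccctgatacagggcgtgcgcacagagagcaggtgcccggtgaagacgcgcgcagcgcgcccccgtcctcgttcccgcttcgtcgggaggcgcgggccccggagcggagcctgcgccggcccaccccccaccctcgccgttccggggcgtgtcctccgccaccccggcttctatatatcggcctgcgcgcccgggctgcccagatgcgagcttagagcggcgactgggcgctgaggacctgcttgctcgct
Igf2, chr7:142661222-142661521, minus strand: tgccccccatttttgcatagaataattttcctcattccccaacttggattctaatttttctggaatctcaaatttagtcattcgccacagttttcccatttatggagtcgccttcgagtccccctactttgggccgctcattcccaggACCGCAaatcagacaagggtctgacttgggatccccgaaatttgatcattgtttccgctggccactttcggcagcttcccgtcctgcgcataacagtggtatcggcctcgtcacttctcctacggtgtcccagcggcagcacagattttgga
Spryd3, chr15:102136166-102136465, minus strand: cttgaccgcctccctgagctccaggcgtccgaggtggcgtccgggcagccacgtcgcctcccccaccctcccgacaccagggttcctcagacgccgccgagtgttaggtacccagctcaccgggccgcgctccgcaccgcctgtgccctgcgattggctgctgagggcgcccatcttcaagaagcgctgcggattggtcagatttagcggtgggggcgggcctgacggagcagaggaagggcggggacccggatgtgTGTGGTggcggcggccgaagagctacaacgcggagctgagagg

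Neither the Igf1r nor the Igfbp6 window held any of these letters. In the Igfbp3 window TGTGGT began at position -223, where the first transcribed base is 1. In the Igf2 window TGCGGT lay on the opposite strand, and its complement shown in capitals began at position -102. In the Spryd3 window TGTGGT began at position 8. TGTGGT or TGCGGT was present in 2 of the 14 IGF gene windows and in 22.4% of all windows of the table. The AP-1 letters TGANTCA were present in 2 of the 14, at the listed start of Igf1 (TGAATCA) and at one start of Igfbp2 (TGAGTCA), and in 7.81% of all windows. A match describes letters only. The genome sequence under the regions away from the starts was not analysed here.

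**Figure D1:**
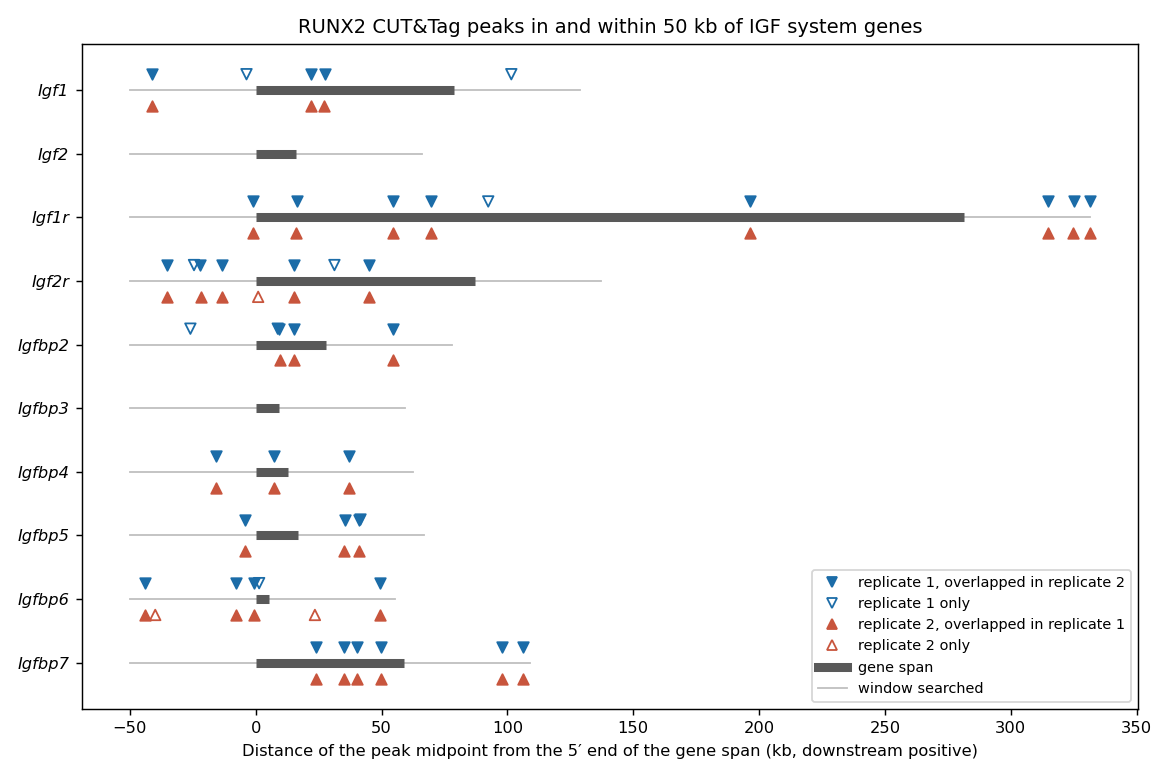
RUNX2 CUT&Tag peaks at the 10 IGF genes, by distance in kb from the 5′ end of each gene span along its own strand. Triangles above each line are peaks of replicate 1 and those below it peaks of replicate 2, filled where the other replicate has an overlapping peak. The thick bar is the gene and the thin line the 50 kb searched on either side. Igf2 and Igfbp3 are empty, and the regions of Igf1r and Igfbp7 run along the gene body.

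Among the ligands, Igf1 had peaks and Igf2 had none. Igf1 (chromosome 10, 87858265 to 87937047) had 5 peaks in replicate 1 and 3 in replicate 2, and 3 regions were shared. Inside the gene, 18.8 kb downstream of the listed start, a region measured 502 bp in replicate 1 and 644 bp in replicate 2. A second, 24.4 kb downstream, measured 340 bp in replicate 1 and 204 bp in replicate 2. The third lay 43.8 kb upstream and measured 399 bp in replicate 1 and 295 bp in replicate 2. The 644 bp peak was at least as wide as 79.3% of the replicate 2 peaks, and the other 5 peaks as 13.1 to 64.7% of their lists. The 2 other replicate 1 peaks of Igf1, 186 bp wide 3573 bp before the gene and 223 bp wide 22661 bp beyond it, had no counterpart in replicate 2.

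Igf2, the imprinted fetal growth factor gene (chromosome 7, 142650768 to 142666816), had 0 peaks in either list within 50 kb. The nearest peak was 117.0 kb from the gene in replicate 1 and 108.0 kb in replicate 2. Nearest peaks at least that far away in both lists were found for 15.5% of protein-coding genes. Igf2 and Igfbp3 were the 2 of 10 IGF genes without any peak in the window, and 21.3% of protein-coding genes had none.

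Both receptor genes carried several regions, most of them away from gene ends. Igf1r (chromosome 7, 67952257 to 68233668) had 9 peaks in replicate 1 and 8 in replicate 2, and 8 regions were shared. At least 8 shared regions were found at 1.41% of all protein-coding genes and at 5.12% of those in the decile of longest genes, to which Igf1r belongs. At least 5, the number at Igf2r, were found at 3 of the 10 IGF genes (Igf1r, Igf2r and Igfbp7), against 11.3% of protein-coding genes.

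The Igf1r region nearest to the start ended 815 bp upstream of it and was narrow, 163 bp wide in replicate 1, the smallest width of that list, and 285 bp in replicate 2. The 2 peaks overlapped by 57 bp. Inside the gene 4 regions followed, at 15.9, 54.2, 69.2 and 195.8 kb from the start. The one at 69.2 kb measured 730 bp in replicate 1 and 901 bp in replicate 2, and the one at 195.8 kb was 730 bp in replicate 1 and 790 bp in replicate 2. These were the widest at Igf1r, and the smaller peak of each was at least as wide as 85.8% of its list. The region at 195.8 kb also lay inside the noncoding gene Gm51487. The regions at 15.9 and 54.2 kb were 610 and 510 bp wide in replicate 1, and 423 and 315 bp in replicate 2. The 3 regions beyond the gene's 3′ end, at 33023, 43274 and 49919 bp from it, had a nearer coding neighbour. The first of these lay nearest to Pgpep1l, and the other 2 lay inside Fam169b.

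Igf2r (chromosome 17, 12682406 to 12769706) had 7 peaks in replicate 1 and 6 in replicate 2, and 5 regions were shared. In the mouse Igf2r is expressed from the maternal allele, and the antisense noncoding RNA Airn, whose gene begins inside Igf2r, silences the paternal one. Of the 5 regions, 4 lay inside the Airn gene. One of these 4, 14.9 kb into Igf2r, measured 299 bp in replicate 1 and 287 bp in replicate 2. The other 3 lay upstream of Igf2r by 13.2, 21.6 and 34.9 kb. The one at 34.9 kb had a nearer coding gene end, that of Mas1, 33557 bp away. The region at 34.9 kb measured 628 bp in replicate 1 and 662 bp in replicate 2, and the region at 13.2 kb was 508 bp in replicate 1 and 617 bp in replicate 2. The region at 21.6 kb was called very differently, at 914 bp in replicate 1 and 284 bp in replicate 2. That ratio of 3.22 was the largest among the 32 regions. The fifth region, inside Igf2r alone at 44.6 kb from its start, measured 692 bp in replicate 1 and 293 bp in replicate 2. A 329 bp peak just inside the 5′ end of Igf2r was called in replicate 2 and had no counterpart in replicate 1.

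Among the binding proteins, Igfbp7 had the most regions. Igfbp7 (chromosome 5, 77349240 to 77408045) encodes a secreted protein with low affinity for IGFs. It had 6 peaks in each replicate, and every one was overlapped in the other. At least 6 shared regions were found at 5.78% of protein-coding genes and at 6.72% of those of similar length. Inside the gene 4 regions lay at 23.6, 34.9, 39.9 and 49.3 kb from the start. The one at 49.3 kb (77357639 to 77358722) was 1084 bp wide in replicate 1, the widest peak at any IGF gene and at least as wide as 97.7% of that list, and 695 bp in replicate 2. Those at 23.6 and 39.9 kb were 426 and 396 bp wide in replicate 1, and 551 and 554 bp in replicate 2. The region at 34.9 kb was 383 bp in replicate 1 and 281 bp in replicate 2. The other 2 regions lay 38618 and 47151 bp beyond the 3′ end. One covered the ends of Noa1 and of Polr2b, which encodes a subunit of RNA polymerase II, and the other lay inside Noa1. For the regions at 34.9, 39.9 and 49.3 kb, though inside Igfbp7, the nearest coding gene end was also that of Polr2b. The Polr2b end was 23445, 18242 and 8311 bp away. It lies just inside the 3′ end of Igfbp7, whose own end was only slightly farther from these regions.

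Igfbp2 and Igfbp5 stand side by side on chromosome 1 and shared their 3 regions. Igfbp2 (72824480 to 72852474) encodes a binding protein that circulates and is also made by bone cells, and Igfbp5 (72858065 to 72874865) encodes one that is stored in bone matrix. Of the 3 regions, 2 lay inside Igfbp2, at 8.4 and 13.8 kb from its nearest listed start. The one at 13.8 kb measured 689 bp in replicate 1 and 787 bp in replicate 2, and the one at 8.4 kb was 210 bp in replicate 1 and 323 bp in replicate 2. The third lay outside both genes, 3942 bp upstream of the Igfbp5 start, and measured 485 bp in replicate 1 and 466 bp in replicate 2. The peaks alone do not assign these regions to either gene. The 2 further peaks of replicate 1 around Igfbp2, 434 and 230 bp wide, had no counterpart in replicate 2.

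Igfbp4 (chromosome 11, 99040005 to 99052655) encodes a binding protein that mostly holds IGF action down and is cleaved by the protease PAPP-A. It had 3 peaks in each replicate, and all were overlapped in the other. One lay inside the gene, 5.7 kb from the listed start, and measured 272 bp in replicate 1 and 454 bp in replicate 2. The other 2 lay at neighbours. One, merged over both replicates, covered the whole promoter window of the topoisomerase gene Top2a and measured 302 bp in replicate 1 and 480 bp in replicate 2. The other lay inside Tns4 and was 638 bp in replicate 1 and 469 bp in replicate 2.

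Igfbp6 (chromosome 15, 102144186 to 102149512) encodes a binding protein that prefers IGF2. It had 5 peaks in replicate 1 and 6 in replicate 2, and 4 regions were shared. The region nearest to the gene ended 611 bp upstream of the start and measured 276 bp in replicate 1 and 202 bp in replicate 2. Both peaks were narrow, and at least as wide as 28.7% of the replicate 1 list and 12.6% of the replicate 2 list. The other 3 regions lay at neighbours, across the start of Spryd3 (384 bp in replicate 1 and 443 bp in replicate 2), inside Tns2 (203 bp in replicate 1 and 160 bp in replicate 2) and inside Csad (796 bp in replicate 1 and 713 bp in replicate 2). The peaks inside Tns2 overlapped by 39 bp, the smallest overlap of the 32 regions. One 214 bp peak inside Igfbp6 was in replicate 1 alone, and peaks of 180 and 663 bp in the window were in replicate 2 alone.

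Igfbp3 (chromosome 11, 7206086 to 7215498) encodes the main carrier of IGFs in serum and had 0 peaks in either list within 50 kb. Its nearest peak was 510.5 kb away in replicate 1 and 211.9 kb away in replicate 2. Nearest peaks at least that far away in both lists were found for 6.76% of protein-coding genes. The lists contain called peaks alone, and signal below the calling limit cannot be seen in them.

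**Figure D2:**
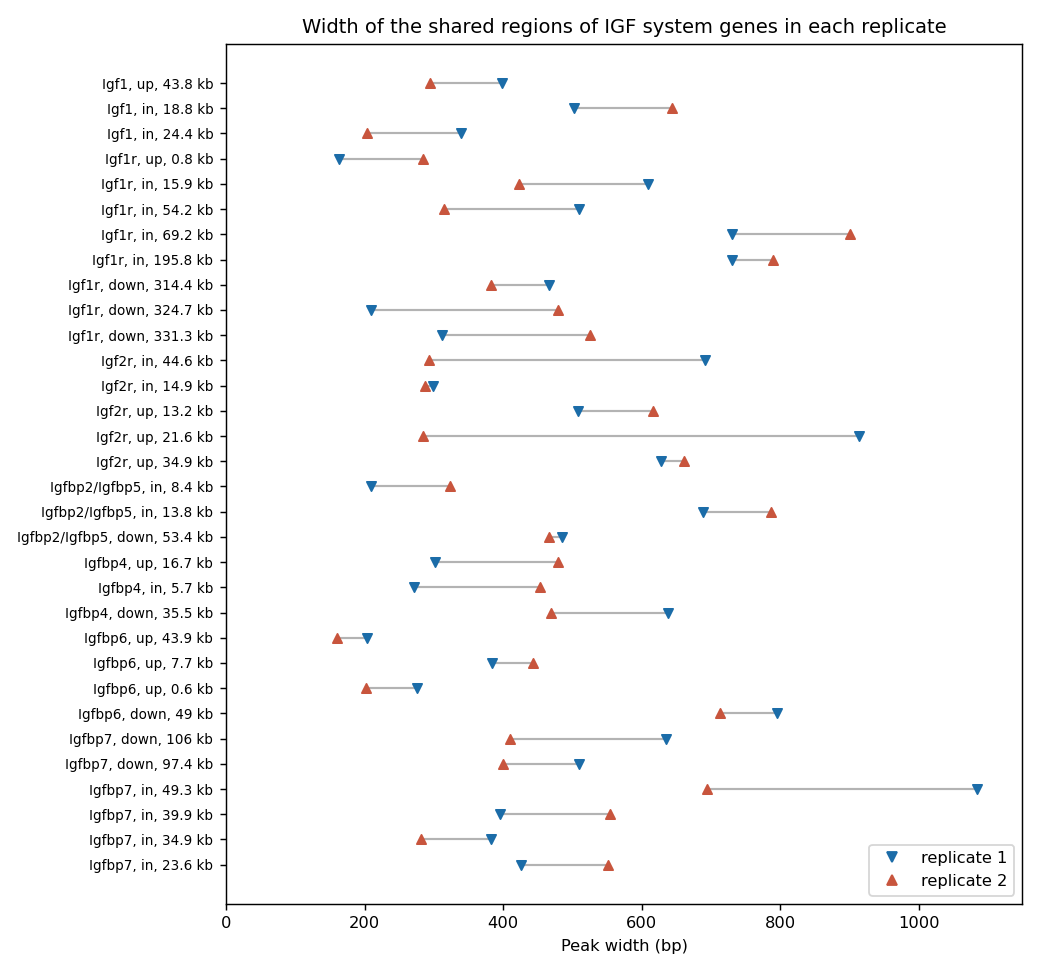
Peak width in bp of the 32 shared regions of the IGF genes in replicate 1 (downward triangles) and replicate 2 (upward triangles), 1 line per region. Labels give the gene, whether the region lies in the gene, upstream or downstream, and the distance to its nearest listed start, measured from Igfbp2 for the regions that Igfbp2 and Igfbp5 share. The longest lines are the Igf2r region at 21.6 kb upstream, the Igf2r region inside the gene at 44.6 kb and the Igfbp7 region inside the gene at 49.3 kb.

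The regions of the IGF genes were mostly distal. Of the 32 regions, 15 lay inside an IGF gene and 17 outside all of them. All 15 inside were over 1 kb from any gene end. At least 1 region touched the span of 6 of the 10 genes (Igf1, Igf1r, Igf2r, Igfbp2, Igfbp4 and Igfbp7), against 41.4% of protein-coding genes. This share was not matched for gene length, and a longer gene offers more span to touch. The 6 genes were in length deciles 5 to 10 (10, the longest), and the others in deciles 3 to 5. Of the 32 regions, 25 were over 1 kb from any annotated gene end (78.1%, 95% Wilson interval 61.2 to 89.0), against 59.5% of all 18128 shared regions of the annotated chromosomes (1 to 19, X, Y). The interval covers counting error only, and regions of the same gene are not independent. The 7 regions within 1 kb of a gene end were near Igf1r and Igfbp6 themselves, or near Gm16157 (2 regions), Top2a, Spryd3, and Noa1 with Polr2b. The nearest coding gene end belonged to an IGF gene for 18 of the 32 regions. This count leaves out the Igfbp7 regions at 34.9, 39.9 and 49.3 kb, for which the Igfbp7 end was only slightly farther than that of Polr2b. Exons and introns were not assigned, since the annotation used gives gene spans.

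Most peaks at the IGF genes were found in both replicates. In replicate 1, 32 of 40 peaks were overlapped (80.0%, 95% Wilson interval 65.2 to 89.5), against 68.2% of all replicate 1 peaks. In replicate 2, 32 of 35 were overlapped (91.4%, 77.6 to 97.0), against 67.2% of all replicate 2 peaks. These intervals too cover counting error only, and peaks of the same gene are not independent. The 8 peaks of replicate 1 alone had a median width of 246 bp (186 to 475), and the 3 of replicate 2 alone 180, 329 and 663 bp. The shared regions had a median width of 476 bp in replicate 1 (163 to 1084) and 448 bp in replicate 2 (160 to 901). All shared regions of the series had medians of 492 bp in replicate 1 and 497 bp in replicate 2. Neither replicate was the wider one throughout, since 17 of the 32 regions were wider in replicate 1 and 15 in replicate 2.

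**Figure D3:**
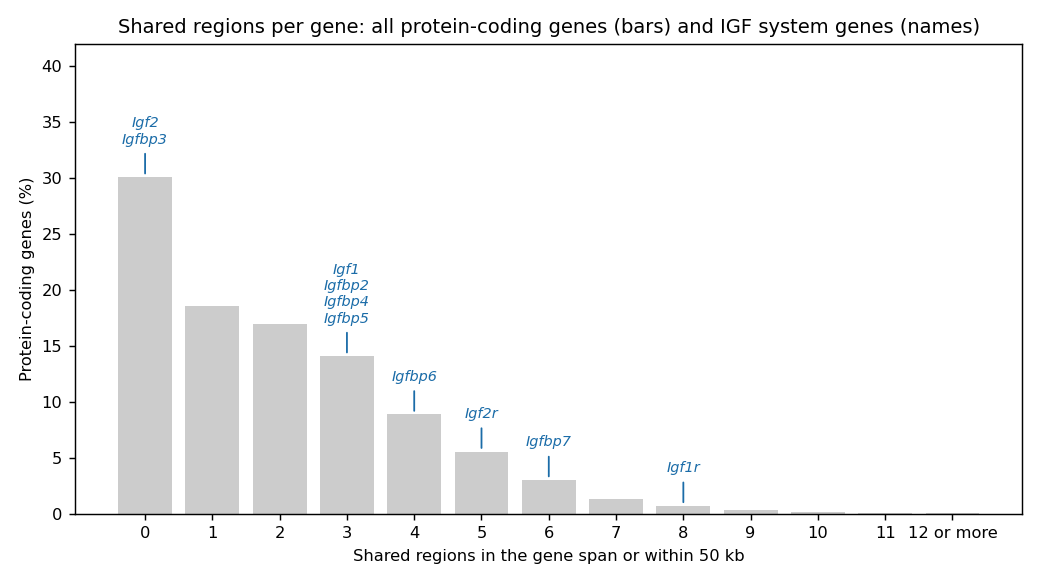
Share of all protein-coding genes, in percent, by the number of shared regions in the gene or within 50 kb (bars), with the IGF genes named above the bar of their own count. Igf1r has 8 regions and Igfbp7 has 6, where bars are low, while Igf2 and Igfbp3 stand at 0 with 30.1% of protein-coding genes.

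The IGF genes differed in how dense their regions were once the length searched was considered. Igfbp6 had 3.80 shared regions per 100 kb of window, Igfbp7 had 3.78, Igf2r 2.67, Igfbp4 2.66, Igfbp5 2.57, Igfbp2 2.34, Igf1r 2.10 and Igf1 1.68. No shared region touched the span of Igfbp6 or Igfbp5, so their densities come from the flanks, which hold other genes. The median density was 2.46 for the 10 genes and 0.984 for all protein-coding genes. The first value lies between those of Igfbp2 and Igfbp5, which hold the same 3 regions, so their locus is counted under both genes. Of protein-coding genes, 30.1% had 0 regions and 18.6% had 1. By count the medians were closer, 3 for the IGF genes against 2. Igf1r, first by count, was thus lower by density than 6 of the other 7 genes with regions, while Igfbp7 was high by both. When only peaks at least as wide as the median of their list were kept, Igfbp7 had 5 regions, Igf1r had 3, and Igf2r, Igfbp2 and Igfbp5 had 2 each. Igf1, Igfbp4 and Igfbp6 had 1 each. The order of the genes by number of regions therefore rested partly on narrow peaks, in particular for Igf1r and Igfbp6.

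A list of 12 other genes, of IGF carriers, proteases and their regulators, Igf2 mRNA-binding proteins and the noncoding gene H19, had shared regions at 9. Among its 11 protein-coding genes the count was 8, a share near the 69.9% of all protein-coding genes. At 5 of the 12, all of them protein-coding, a region touched the span, against 41.4% of protein-coding genes. The median was 1.5 regions for the 12 genes, against 2 for all protein-coding genes. These comparisons were not matched for gene length. The most were at Pappa2, which encodes a protease that cleaves IGF binding proteins. It had 8 regions, 7 of them touching the gene, and the widest was 792 bp in replicate 1 and 604 bp in replicate 2. Igf2bp3 and Igf2bp2, which encode RNA-binding proteins that bind Igf2 mRNA, had 5 and 4, of which 2 and 3 touched the gene. The widest Igf2bp3 region was 1038 bp in replicate 1 and 900 bp in replicate 2. Igfals, which encodes the acid-labile subunit of the circulating IGF complex, also had 5, none of them touching the gene. Igfbp1, which lies beside Igfbp3, Igfbpl1, and Stc1, which encodes a stanniocalcin, had none, and their nearest shared regions were 502.2, 120.9 and 119.1 kb away.

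Among 31 insulin and IGF signalling genes, 25 had a shared region, against 69.9% of protein-coding genes, and 19 had one touching the span, against 41.4%. The median was 3 regions, against 2 for all protein-coding genes. Here too gene length was not matched. Pdpk1, which encodes the kinase PDK1 that activates AKT, had 8, 3 of them touching the gene. Pik3r2, which encodes a regulatory subunit of PI3 kinase, had 7, but only 1 touched the gene. The widest in the Pik3r2 window was 1713 bp in replicate 1 and 1169 bp in replicate 2. Rptor, which encodes the mTORC1 subunit raptor, also had 7, 4 of them touching the gene. Its widest was 1236 bp in replicate 1 and 863 bp in replicate 2. Akt2, an AKT kinase gene, had 6, and 1 touched the gene. Some genes of both lists are named for their place in the pathway, after their values were seen. The insulin receptor gene Insr had 2 regions, the receptor substrate genes Irs1 and Irs2 had 3 each, and Pappa, which encodes PAPP-A, had 3. H19, the noncoding neighbour of Igf2 in the same imprinted cluster, had 1 region, 41.7 kb away on the side far from Igf2.

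**Figure D4:**
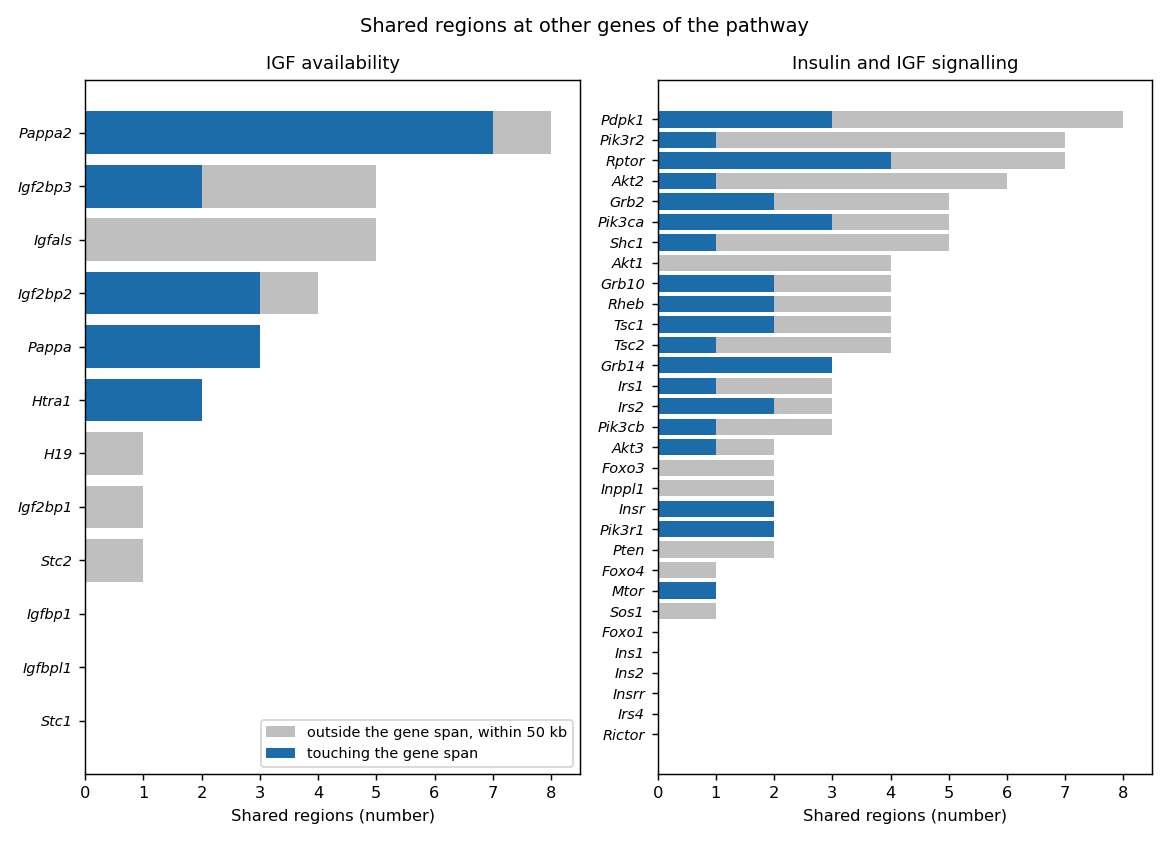
Number of shared regions in the span (blue) and outside it within 50 kb (grey) for 12 genes of IGF availability and 31 genes of insulin and IGF signalling. Pappa2 and Pdpk1 have 8 regions each, and 3 genes of the first list and 6 of the second have none.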

How the data were processed

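Peak lists of 2 CUT&Tag libraries against RUNX2 were used as deposited by the authors, 1 list per replicate, with no pooling. The lists have 5 columns, read from their values as a running number, chromosome, start, end and width, with both ends included in the width on every line. The build is GRCm38 (mm10), and deepTools, Bowtie2 and fastp 0.19.6 are named without their roles, per the submitters' processing notes. Not given in the sources used here are the peak caller, its threshold and the use of a control, and depth is unknown.

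The lists held 26853 peaks in replicate 1 and 27287 in replicate 2. Overlapping peaks of both lists were merged to 18133 shared regions with Python 3.11.15, and overlap counts equalled those of bedtools 2.31.1. The code was tested on simulated data. A region belonged to a gene when any base lay in its RefSeq span or within 50 kb. Distances run from the nearest edge of the region. A listed start is one in the RefSeq promoter table, which held all 10 genes. Intervals are Wilson intervals at the 95% level.

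The members and the pathway lists were chosen with earlier results of these data known. Named beside the members were genes with an end within 1 kb of a described region. Genes that overlap a member or a region or carry its nearest end were named as well. From the pathway lists came the 4 genes of each with the most regions, and the genes of the first list with none. Insr, Irs1, Irs2, Pappa and H19 were named outside this rule, for their place in the pathway and after their values were seen.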

Additional observations from a re-analysis of the deposited data

How the results depend on the processing

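The number of IGF genes with a shared region was 8 under all 8 alternatives, and the genes with none were Igf2 and Igfbp3 also with 10 kb or 100 kb in place of 50 kb. The number of distinct shared regions, 32, was 15 with only peaks at least as wide as the median of their list, 19 with 10 kb, 49 with 100 kb, and 15 when each region went only to the protein-coding gene whose end was nearest, up to 50 kb away. It was 25 with a reciprocal overlap of at least 50% and 31 with midpoints, and with 1 replicate alone there were 35 to 40 peaks. The share of IGF gene peaks overlapped in the other replicate, 85.7% ± 8.08 (SD, n = 2), was 69.8% with only the wider peaks and 67.0% with the reciprocal overlap. The 2 shares behind this SD have the same 32 overlaps, over 40 and 35 peaks. They are not independent, and the SD reflects only the peak numbers. The median width of the shared regions, 462 bp ± 19.4 (SD, n = 2), was 622 bp with only the wider peaks, 484 bp with the reciprocal overlap and 434 bp with 10 kb. The number of pathway genes with a shared region, 34 of 43, was 27 to 38 over its 8 alternatives. Apart from the filter on width and the stricter overlap, which leave fewer peaks by construction, and the windows, which change the length searched, the cause was not tested. No paired analysis was possible because the series has a single group and no contrast. With no peak heights and no control library among these samples, neither weak sites nor background could be judged.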

Other observations

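Over the RefSeq promoter table, the letters TGTGGT were less frequent and TGCGGT more frequent in windows that a shared region overlapped. TGTGGT was present in 12.5% of the 7492 overlapped windows and in 18.0% of the 25359 others, and TGCGGT in 11.4% of the overlapped windows and 4.98% of the others. The overlapped windows were also richer in G and C, with a median of 62.0% against 50.3% in the others, and the part of base composition in these shares was not tested.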
